A study of Mus musculus with 6 samples.

Results

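Interferon-stimulated genes are the effectors of innate antiviral defence. Type I and type III interferons act through receptor-bound kinases on a complex that holds STAT2 and IRF9 and binds interferon-stimulated response elements (ISRE) in promoters. Interferon gamma acts at a different element, the gamma-activated site (GAS). The genes so controlled encode sensors of foreign nucleic acid, nucleases, membrane proteins that block viral entry or release, and enzymes that degrade or tag viral components. T cells keep part of this programme active without infection. The 44 genes described here were chosen by name as interferon-stimulated antiviral genes, with earlier results of these data known. They were taken out of 47643 annotated gene IDs, and each of the 44 was found in every library.

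The cells were mouse iTreg, regulatory T cells induced in culture, and their RNA was sequenced in bulk. Both groups came from CD4+ T cells of the spleen of C57BL/6 mice carrying Foxp3-DTR/EGFP, an allele that places a toxin receptor and a green fluorescent protein under the Foxp3 gene. The cells were activated for 2 days by plate-bound antibody to CD3 and soluble antibody to CD28 in the presence of TGF-β, and Foxp3+ cells were sorted on the reporter at the end. The 3 PGE2 libraries are from cells given 100 nM prostaglandin E2 for 6 h, a lipid mediator whose receptors EP2 and EP4 raise cAMP, and the 3 Vehicle libraries are from cells given DMSO for 6 h. The title of the series ties the comparison to EP2 and EP4 signalling and to regulatory T cells of tumours. These are cells differentiated in culture and not regulatory T cells of a tissue, no interferon or virus is named in the labels, and the labels do not say whether replicates came from separate animals or cultures. The p-values therefore measure only the spread between these samples, which may be technical.

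Levels are given in FPKM, which divides the fragments of a gene by its transcript length and the library size, so that genes can be set against each other. Changes are differences on the log2(FPKM + 1) scale, PGE2 minus Vehicle, which understates the change of low genes. They were tested by limma over the 12113 genes that averaged 1 FPKM or more in the 6 libraries, with Benjamini-Hochberg adjustment over all of them and a threshold of 0.05. The depth was 5.446, 5.195 and 4.542 gigabases of fragments in PGE2 replicates 1 to 3, and 5.121, 5.045 and 3.996 in Vehicle replicates 1 to 3, so replicate 3 was the shallowest in both groups. Regulatory T cell markers were present throughout, with Foxp3 at 91.1 to 136 FPKM in PGE2 libraries and 75.4 to 101 FPKM in Vehicle libraries. The replicate numbers of the titles were taken to pair the libraries, since libraries of the same number deviated together. This pairing was inferred from the values and is clearest for replicate 3, at a correlation of 0.529. PGE2 replicate 1 correlated at 0.227 with Vehicle replicate 1 and at 0.271 with Vehicle replicate 2. These values therefore do not settle how replicates 1 and 2 pair. Values with the number as a block stand beside those without it where they differ in a call.

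Promoters show what the genes share in sequence. RefSeq promoter windows (GRCm38.p6, 250 bases before to 50 after each start) were matched by symbol for 31 of the 44 genes. The ISRE core GAAANNGAAA, searched on both strands with overlapping matches kept, was found in the windows of 18 of 31 members, or 58.1%, against 3.99% of the 27025 genes with a window. The GAS pattern TTCNNNGAA was found in 9 of 31 members, or 29.0%, against 9.55% of all genes. The cAMP response element TGACGTCA was found in 0 of 31 members, against 2.03% of all genes. A match is a description of these letters and not a measured binding site.
Stretches of 80 bases around the ISRE matches are printed 5′ to 3′ on the gene's strand, with the matched bases in capitals. Only stretches upstream of the start are printed. Isg15, Ifit3 and Ifit1 are shown because their levels were higher with PGE2 at an unadjusted p under 0.05, while Ddx58, which also was, has its match past the start and is not printed. Ifit3b is shown because it is a near copy of Ifit3, and Bst2 is shown because it holds 2 overlapping matches and differed little between the groups. They lie at chr4:156200846-156200925 on the minus strand for Isg15, chr19:34583355-34583434 on the plus strand for Ifit3, chr19:34607751-34607830 on the plus strand for Ifit3b, chr19:34640759-34640838 on the plus strand for Ifit1, and chr8:71537555-71537634 on the minus strand for Bst2.
Isg15: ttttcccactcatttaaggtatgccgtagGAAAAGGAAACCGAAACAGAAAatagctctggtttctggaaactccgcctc
Ifit3: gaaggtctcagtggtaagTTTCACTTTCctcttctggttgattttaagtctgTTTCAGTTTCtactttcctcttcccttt
Ifit3b: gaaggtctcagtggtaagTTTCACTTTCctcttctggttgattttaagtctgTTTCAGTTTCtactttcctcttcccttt
Ifit1: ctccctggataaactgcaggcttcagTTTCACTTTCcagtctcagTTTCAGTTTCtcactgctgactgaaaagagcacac
Bst2: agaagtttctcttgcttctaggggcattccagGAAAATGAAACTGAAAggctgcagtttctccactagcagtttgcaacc
In Isg15 the 3 matches overlap in 1 run of capitals, and in Ifit3 and Ifit1 the 2 matches lie apart and in the reverse orientation. The stretches of Ifit3 and Ifit3b are equal in 80 of 80 bases. Of the 16 tested members with an ISRE match, 13 were higher with PGE2 and their median log2 change was 0.15. Of the 11 tested members with a window and no match, 9 were higher and their median log2 change was 0.21. Most members of both sets were thus higher with PGE2, and the difference between the sets was not tested. Tested members with no matched window, which neither set holds, included Zbp1, Iigp1, Rtp4, Ly6a, Ifi27l2a, Usp18 and Parp9. Each of these had a log2 change above 0.33, the highest in the set without a match. Parp14 at 0.24 and Ly6e at -0.14 also had no matched window.

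**Figure D1:**
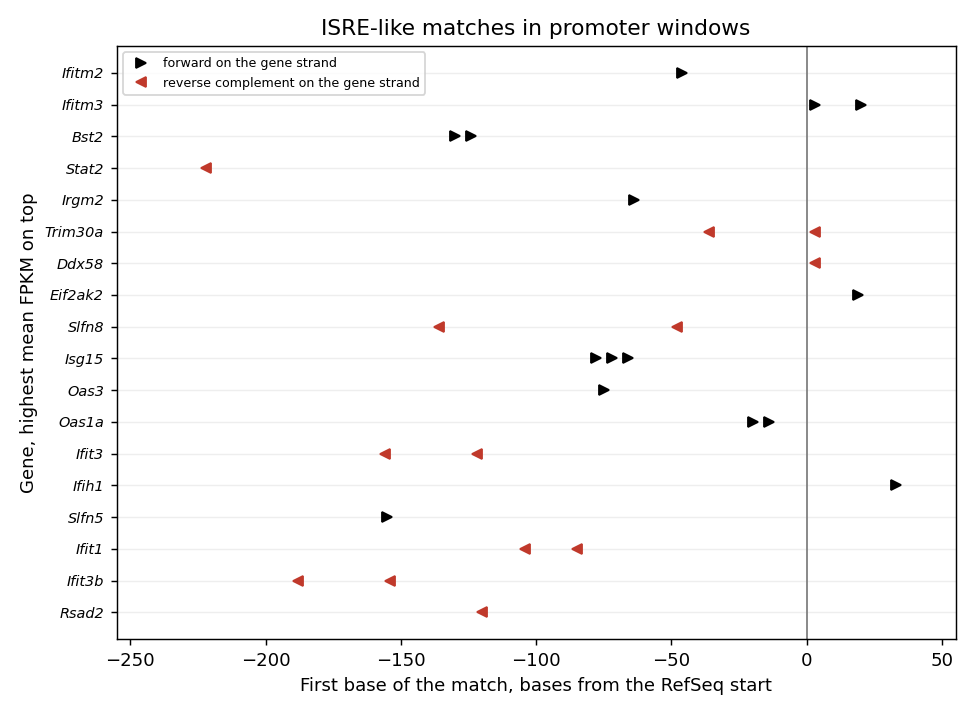
Position of each ISRE-like match in the promoter windows of 18 members, as the distance in bases from the RefSeq start, with triangles pointing right for matches read forward on the gene strand and left for the reverse complement. Matches of 13 of the 18 genes lie only upstream of the start.

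The levels of the 44 genes spanned 4 orders of magnitude. Over the 6 libraries 7 members averaged over 100 FPKM, 16 averaged 10 to 100, 14 averaged 1 to 10, and 7 averaged under 1 FPKM and were not tested. The most abundant were the surface proteins Ly6a at 511 FPKM and Ly6e at 460 FPKM, followed by the membrane proteins Ifitm2 at 297 FPKM and Ifitm3 at 194 FPKM. Samhd1 at 158 FPKM, Ifi27l2a at 151 FPKM and Ifi47 at 126 FPKM complete the group over 100 FPKM. Neighbours in this order such as Ifitm3 and Samhd1 did not differ beyond their spread, since Ifitm3 ranged from 139 to 271 FPKM and Samhd1 from 131 to 190 FPKM over the 6 libraries. The 7 members with a mean under 1 FPKM were Mx1, Mx2, Oas2, Oasl1, Oasl2, Rsad2 and Ifit3b. These include genes used as markers of acute interferon exposure, among them Rsad2, which encodes viperin, at 0.0255 to 0.0797 FPKM in PGE2 libraries and 0.0561 to 0.065 FPKM in Vehicle libraries.

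**Figure D2:**
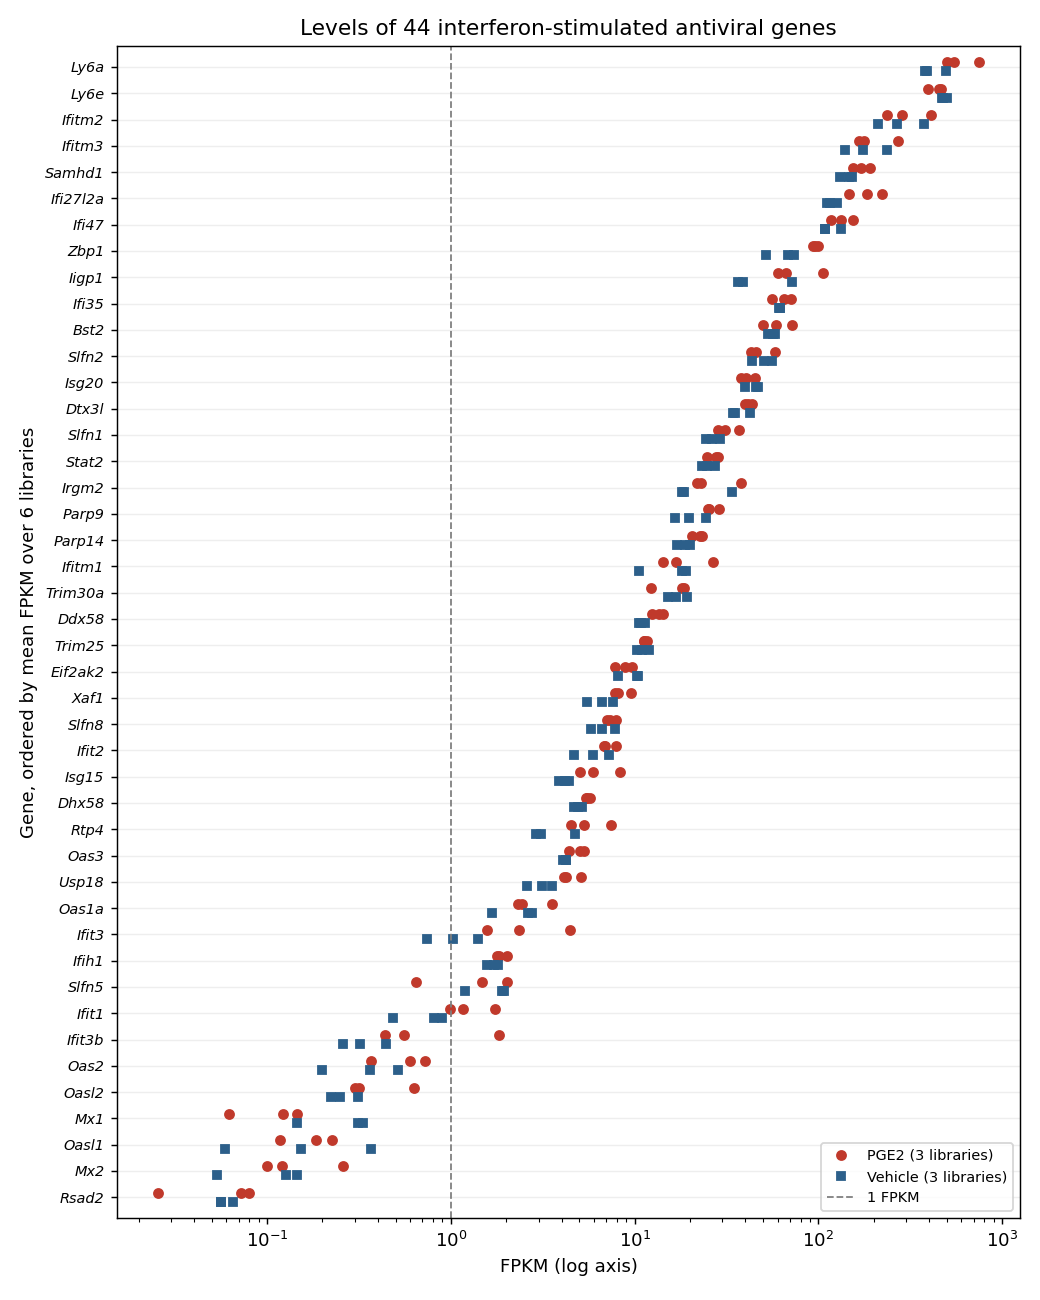
FPKM (log axis) of the 44 genes, ordered by their mean over 6 libraries, with PGE2 libraries as circles and Vehicle libraries as squares, 3 of each. Ly6a and Ly6e head the order, and 7 genes have a mean left of the dashed line at 1 FPKM.

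Most of the tested members had higher means with PGE2, by small amounts. Of the 37 tested members 31 were higher, or 83.8%, against 43.3% of all tested genes. Their median log2 change was 0.21, against -0.03 over all tested genes, and single members ranged from -0.21 to 0.82. In the limma fit without a block 0 of 37 members passed the threshold in either direction, and the lowest adjusted p was 0.11. Over all tested genes that fit called 0.57% as higher and 0.239% as lower. At an unadjusted p under 0.05, 13 members were higher and 0 were lower with limma, so 35.1% of the tested members were higher against 5.46% of all tested genes, of which a further 7.59% were lower. The 3 PGE2 values all lay above the 3 Vehicle values for 14 members, or 37.8%, against 7.81% of all tested genes. They all lay below them for 1 member, Ly6e, or 2.7%, against 11.9% of all tested genes. Ifit1 is counted here although it reached a mean of 1 FPKM only through its PGE2 libraries. Without it 30 of 36 tested members were higher, 12 at an unadjusted p under 0.05 and 13 without overlap, and the median log2 change was 0.20.

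With the replicate number as a block, 5 members rose and 0 fell, which is 13.5% of those tested against 1.77% of all tested genes called as higher and 1.49% called as lower. The 5 were Zbp1, Iigp1, Rtp4, Ly6a and Ifi27l2a. Within pairs, 24 members were higher with PGE2 in all 3 pairs, or 64.9%, against 17.7% of all tested genes. Another 2, Isg20 and Ly6e, were lower in all 3 pairs, or 5.41%, against 24.5%. The median log2 change was 0.21, 0.19 and 0.22 in pairs 1, 2 and 3, against -0.03, 0 and -0.05 over all tested genes. The calls with the block depend on single pairs, since 8 members passed without pair 1, 0 without pair 2, and 1, Iigp1, without pair 3. With a pair left out few libraries remain to estimate the spread of a single gene, so those p-values rest largely on the spread over all genes. Without pair 1 the fit with the block called 963 of all tested genes, against 395 with all pairs. Because these are bulk samples, a change in the share of cells that express a gene and a change in its RNA per cell cannot be told apart.

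**Figure D3:**
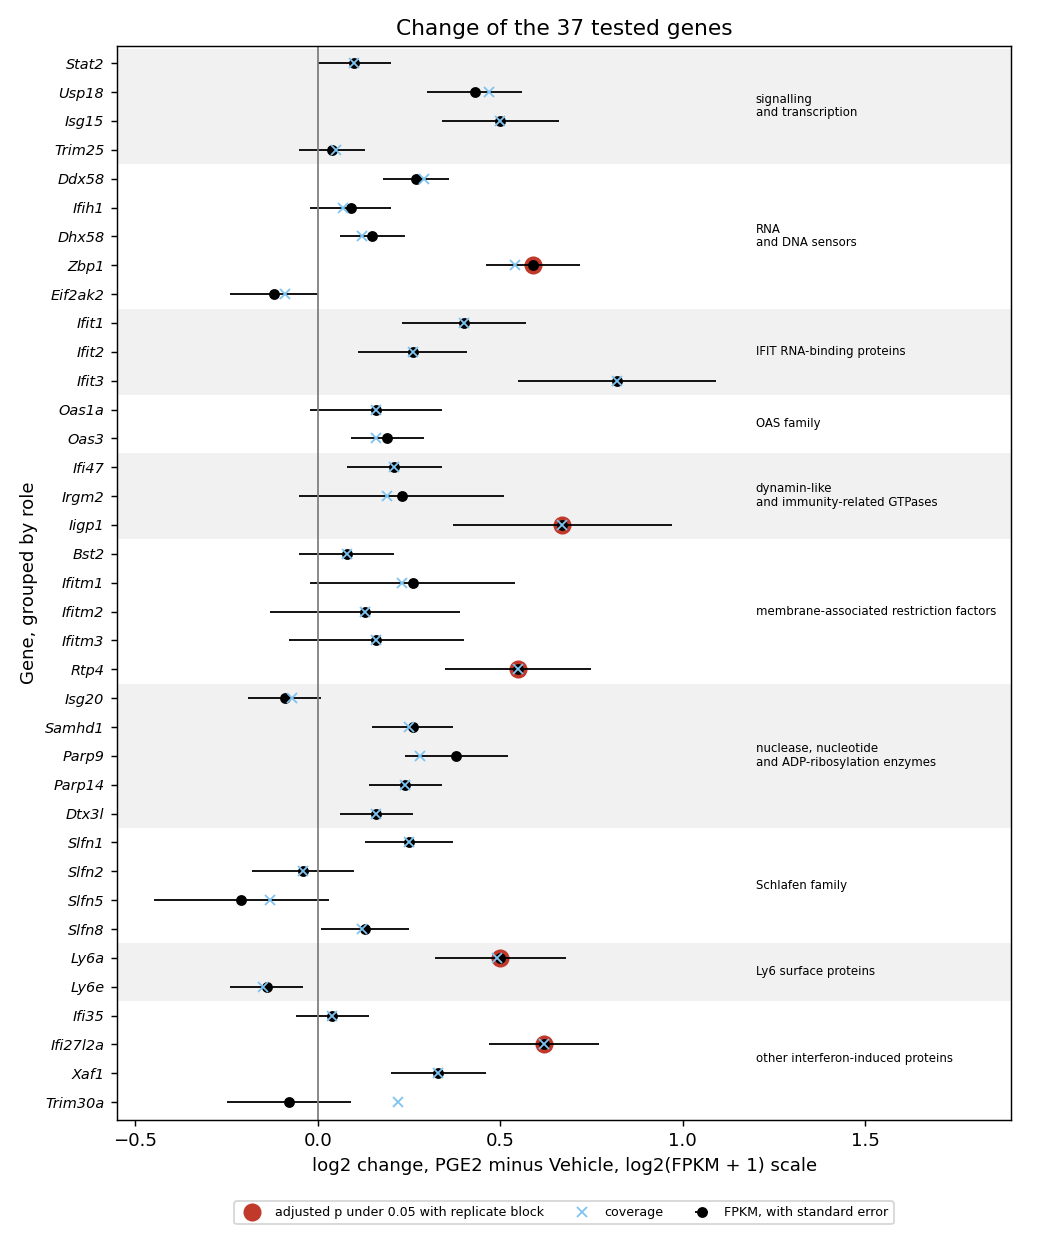
Change of the 37 tested members on the log2(FPKM + 1) scale, PGE2 minus Vehicle, grouped by role, with points for FPKM, bars for the standard error of the fit (n = 3 each) and crosses for coverage. Red rings mark the 5 members with an adjusted p under 0.05 in the fit with a replicate block, and most points lie right of 0.

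Among the members that act in interferon signalling itself, all 4 had higher means with PGE2, and none passed the threshold without the block or with it on FPKM. Isg15, a ubiquitin-like protein that is joined to other proteins during the antiviral response, had 5.06, 5.91 and 8.31 FPKM in PGE2 libraries, against 4.19, 3.88 and 4.38 FPKM in Vehicle libraries. The groups do not overlap, and PGE2 replicate 3 stands above its other replicates. The log2 change of Isg15 was 0.50 (SE 0.16), and 0.33 without PGE2 replicate 3. Its adjusted p was 0.24 without and 0.096 with the block in limma, and 0.02 with the block when pair 1 was left out. Usp18, the protease that removes Isg15 from its targets and dampens the type I receptor, had 4.21, 5.10 and 4.15 FPKM in PGE2 libraries and 3.13, 3.54 and 2.60 FPKM in Vehicle libraries. These groups also do not overlap, and the log2 change of Usp18 was 0.43 (SE 0.13). Its adjusted p was 0.21 without and 0.079 with the block in limma, and 0.027 with the block on coverage. Its exons overlap Gm44148 on the opposite strand, and the annotated gene held 60.3% to 65.2% of the FPKM of the assembled locus there. Stat2, the subunit through which type I interferon reaches the ISRE, averaged 27.0 ± 2.02 FPKM with PGE2 and 25.2 ± 2.13 FPKM with Vehicle (SD, n = 3 each). Trim25, a ubiquitin ligase that activates the sensor RIG-I, averaged 11.4 ± 0.223 FPKM with PGE2 and 11.1 ± 0.864 FPKM with Vehicle. The groups of Stat2 and of Trim25 overlap.

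Of the 5 sensors of nucleic acid, Zbp1 had the largest difference. Zbp1 binds nucleic acid in the left-handed Z form and can start necroptotic cell death, and it lies at chr2:173206612-173218923 on the minus strand (mm10). It had 96.1, 100 and 93.8 FPKM in PGE2 libraries, against 68.7, 73.3 and 51.7 FPKM in Vehicle libraries. The 3 PGE2 values lie close together, above all Vehicle values, and the spread is in the Vehicle group. The log2 change of Zbp1 was 0.59 (SE 0.13), a fold of 1.51, with an adjusted p of 0.11 without and 0.035 with the block in limma. Over the alternatives without a block its adjusted p was 0.054 to 0.32. With the block it was 0.0052, 0.06 and 0.11 without pair 1, 2 and 3.

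The RNA helicases of the RIG-I family differed less between the groups. Ddx58, which encodes RIG-I, the sensor of RNA with a free triphosphate end, had 13.5, 12.5 and 14.2 FPKM in PGE2 libraries and 10.8, 10.6 and 11.4 FPKM in Vehicle libraries. The groups do not overlap, at a log2 change for Ddx58 of 0.27 (SE 0.09, adjusted p = 0.24 with limma). Dhx58, which encodes their regulator LGP2, had 5.51, 5.73 and 5.42 FPKM in PGE2 libraries and 4.90, 5.16 and 4.69 FPKM in Vehicle libraries. Those groups do not overlap either, at a log2 change of 0.15 and an adjusted p of 0.56 with limma. Ifih1, which encodes the long-RNA sensor MDA5, was low at 1.57 to 2.03 FPKM over all 6 libraries. Eif2ak2, which encodes the kinase PKR that halts translation on double-stranded RNA, averaged 8.74 ± 0.921 FPKM with PGE2 and 9.58 ± 1.28 FPKM with Vehicle, and its groups overlap.

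The IFIT genes lie side by side on chromosome 19 and encode proteins that bind viral RNA lacking a host cap. The largest log2 change of any tested member belonged to Ifit3, at 0.82 (SE 0.27), and this rank rests on replicate 3. Without PGE2 replicate 3 its change was 0.53, below the 0.61 of Zbp1, and without Vehicle replicate 3 it was below the 0.97 of Iigp1. Ifit3 had 1.58, 2.36 and 4.44 FPKM in PGE2 libraries, against 1.03, 0.743 and 1.41 FPKM in Vehicle libraries. The groups do not overlap, and replicate 3 is the highest of both. Its adjusted p was 0.26 without and 0.065 with the block in limma, 0.039 with the block on coverage, and 0.0043 with the block when pair 1 was left out. Of the 50-base words in the transcript of Ifit3, 51.2% also occur in Ifit3b, so that reads of this pair of genes cannot be fully told apart, and the division of reads between them was the authors' program's. Ifit3b, under 1 FPKM on average and not tested, had 0.437, 0.557 and 1.83 FPKM in PGE2 libraries and 0.258, 0.444 and 0.322 FPKM in Vehicle libraries. It too is highest in PGE2 replicate 3, and its groups overlap. Ifit1 had 0.992, 1.17 and 1.73 FPKM in PGE2 libraries and 0.809, 0.899 and 0.483 FPKM in Vehicle libraries, at a log2 change of 0.40 (SE 0.17, adjusted p = 0.38 with limma). Ifit1 averaged 1.30 FPKM with PGE2 and 0.731 FPKM with Vehicle, so it passed the filter only through the PGE2 group. Ifit2 averaged 7.20 ± 0.635 FPKM with PGE2 and 5.93 ± 1.27 FPKM with Vehicle, and was higher with PGE2 in 3 of 3 pairs while its groups overlap.

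The OAS enzymes make an oligoadenylate messenger that activates the nuclease RNase L. Oas3 had 5.04, 4.41 and 5.27 FPKM in PGE2 libraries and 4.21, 4.22 and 4.07 FPKM in Vehicle libraries. The groups do not overlap, and the log2 change of Oas3 was 0.19 (SE 0.10, adjusted p = 0.49 with limma). Oas1a averaged 2.76 ± 0.672 FPKM with PGE2 and 2.36 ± 0.596 FPKM with Vehicle, with 57.6% of its 50-base words also in Oas1g, so its value is uncertain. The other OAS members, Oas2, Oasl1 and Oasl2, did not exceed 0.722 FPKM in any library.

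The GTPases divide into a nearly silent and an abundant set. Mx1 and Mx2, dynamin-like proteins that trap viral components, stayed at 0.0536 to 0.332 FPKM over all libraries. The C57BL/6 strain is known to carry a defective Mx1, and the annotation of build mm10 lists Mx2 as a polymorphic pseudogene. The immunity-related GTPases, which act on the membranes around intracellular parasites, were far more abundant. Iigp1 had 59.9, 66.9 and 106 FPKM in PGE2 libraries, against 36.7, 38.8 and 71.5 FPKM in Vehicle libraries. The groups overlap, with replicate 3 highest in both, and within each pair the PGE2 library is the higher one. The log2 change of Iigp1 was 0.67, with an SE of 0.30 and an adjusted p of 0.40 without the block, and an SE of 0.08 and an adjusted p of 0.012 with it. The change of Iigp1 was 0.43 without PGE2 replicate 3 and 0.97 without Vehicle replicate 3. Without pair 1, 2 and 3 the adjusted p of Iigp1 with the block was 0.002, 0.051 and 0.042. Ifi47 averaged 135 ± 19.2 FPKM with PGE2 and 116 ± 13.6 FPKM with Vehicle, and was higher in 3 of 3 pairs. Irgm2 averaged 27.5 ± 8.95 FPKM with PGE2 and 23.5 ± 8.85 FPKM with Vehicle. Irgm2 shares exons with Igtp on the same strand and held 7.5% to 12.4% of the FPKM of the assembled locus, so its value depends on how reads were divided between these genes.

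Proteins at membranes made up some of the most abundant members, and the differences were small apart from Rtp4. Ifitm1, Ifitm2 and Ifitm3 insert into membranes and hinder fusion of viruses with them. Ifitm2 had 285, 236 and 411 FPKM in PGE2 libraries and 267, 210 and 374 FPKM in Vehicle libraries. Libraries of the same number lie near each other, replicate 3 is highest, and the difference within pairs is small beside that between replicates. Ifitm3 averaged 205 ± 57.3 FPKM with PGE2 and 183 ± 48.3 FPKM with Vehicle, and Ifitm1 averaged 19.2 ± 6.60 FPKM with PGE2 and 15.8 ± 4.65 FPKM with Vehicle. Ifitm1 passed only with the block and pair 1 left out (adjusted p = 0.028 with limma). Of the 50-base words in the transcript of Ifitm2, 48.5% also occur in other genes, so its level is uncertain. Bst2, the tether that holds budding virus at the cell surface, averaged 60.0 ± 10.7 FPKM with PGE2 and 56.0 ± 2.59 FPKM with Vehicle. Rtp4, a chaperone with activity against flaviviruses, had 4.50, 5.28 and 7.45 FPKM in PGE2 libraries, against 3.11, 2.92 and 4.73 FPKM in Vehicle libraries. Its groups overlap by replicate 3 of Vehicle, and each pair is higher with PGE2. Rtp4 had a log2 change of 0.55, with an adjusted p of 0.31 without and 0.042 with the block in limma. With the block its adjusted p was 0.021, 0.23 and 0.13 without pair 1, 2 and 3.

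**Figure D4:**
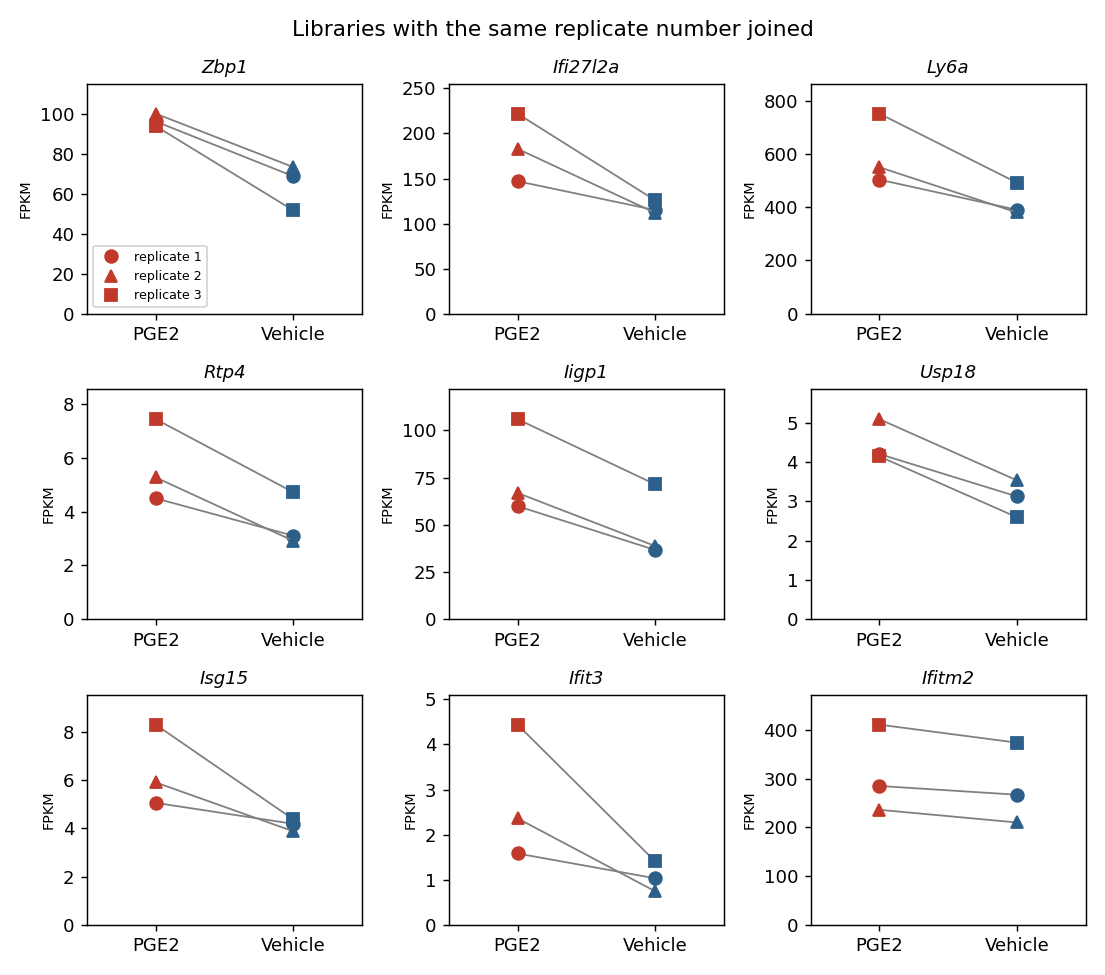
FPKM of 9 members in PGE2 and Vehicle libraries, with lines joining libraries of the same replicate number and the axis starting at 0. All 9 are among the 24 of 37 tested members that were higher with PGE2 in all 3 pairs, so every line falls toward Vehicle. Replicate 3 lies above the other replicates of both groups for Ifi27l2a, Ly6a, Rtp4, Iigp1, Isg15, Ifit3 and Ifitm2.

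Enzymes of nucleic acid and ADP-ribose metabolism had 4 of 5 members higher. Samhd1, which limits retroviruses by breaking down deoxynucleotides, had 190, 171 and 154 FPKM in PGE2 libraries, against 152, 147 and 131 FPKM in Vehicle libraries. The lowest PGE2 value is just above the highest Vehicle value, and replicate 3 is the lowest in both groups. The log2 change of Samhd1 was 0.26 (SE 0.11, adjusted p = 0.37 with limma). Parp9 and Dtx3l encode partners in one ADP-ribosylating ubiquitin ligase and overlap on opposite strands, and the use of strand in the authors' counting is not given in the sources used here, so their reads may not be told apart. Parp9 had 25.0, 25.5 and 28.7 FPKM in PGE2 libraries and 19.8, 16.5 and 24.6 FPKM in Vehicle libraries, at a log2 change of 0.38 (SE 0.14, adjusted p = 0.32 with limma). The annotated Parp9 held 54.5% to 68.0% of the FPKM of its assembled locus, whose log2 change was 0.24. Dtx3l averaged 41.6 ± 1.89 FPKM with PGE2 and 37.3 ± 4.57 FPKM with Vehicle, and its groups overlap. Parp14, a mono-ADP-ribosyltransferase, had 23.2, 22.6 and 20.5 FPKM in PGE2 libraries and 16.9, 20 and 18.8 FPKM in Vehicle libraries. Its groups do not overlap, at a log2 change of 0.24 (SE 0.10, adjusted p = 0.34 with limma). Isg20, an exonuclease that degrades single-stranded RNA, averaged 41.2 ± 3.66 FPKM with PGE2 and 44.1 ± 3.89 FPKM with Vehicle, and was lower with PGE2 in all 3 pairs.

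The Schlafen genes, regulators of T cell growth and of the translation of viral messages, had changes of both signs, and none passed the threshold. Slfn1 averaged 32.1 ± 4.48 FPKM with PGE2 and 26.6 ± 2.29 FPKM with Vehicle, and was higher in 3 of 3 pairs. Slfn2 averaged 49.0 ± 8 FPKM with PGE2 and 50 ± 6.09 FPKM with Vehicle, and Slfn8 averaged 7.42 ± 0.433 FPKM with PGE2 and 6.74 ± 1.02 FPKM with Vehicle. Slfn5 had the lowest log2 change of the tested members, at -0.21 (SE 0.24), with 1.38 ± 0.688 FPKM with PGE2 and 1.68 ± 0.419 FPKM with Vehicle. The groups of all 4 genes overlap.

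The 2 most abundant members, Ly6a and Ly6e, lie near each other on chromosome 15 and had changes of opposite sign. Ly6a encodes the surface protein Sca-1, a marker of activated T cells, and had 503, 550 and 751 FPKM in PGE2 libraries, against 390, 380 and 492 FPKM in Vehicle libraries. The groups do not overlap, and replicate 3 is the highest of both. Ly6a had a log2 change of 0.50 (SE 0.18), a fold of 1.42, with an adjusted p of 0.28 without and 0.045 with the block in limma. Without PGE2 replicate 3 the change of Ly6a was 0.33. With the block its adjusted p was 0.0014, 0.27 and 0.24 without pair 1, 2 and 3. Of its 50-base words 15.0% also occur in Ly6c1. Ly6e, which restricts the entry of coronaviruses, had 397, 456 and 463 FPKM in PGE2 libraries, against 475, 498 and 473 FPKM in Vehicle libraries. It is the only tested member whose PGE2 values all lie below its Vehicle values, at a log2 change of -0.14 (SE 0.10, adjusted p = 0.63 with limma).

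Among the remaining interferon-induced proteins, Ifi27l2a and Xaf1 were higher with PGE2. Ifi27l2a, a small hydrophobic protein of organelle membranes, lies at chr12:103442167-103443680 on the minus strand (mm10). It had 147, 183 and 222 FPKM in PGE2 libraries, against 115, 112 and 126 FPKM in Vehicle libraries. All PGE2 values lie above all Vehicle values, and the spread is wider with PGE2. Ifi27l2a had a log2 change of 0.62 (SE 0.15), a fold of 1.54, with an adjusted p of 0.13 without and 0.036 with the block in limma. With the block its adjusted p was 0.00041, 0.12 and 0.14 without pair 1, 2 and 3. Xaf1, a partner of an inhibitor of apoptosis, had 8.14, 7.82 and 9.54 FPKM in PGE2 libraries and 5.47, 7.58 and 6.67 FPKM in Vehicle libraries, at a log2 change of 0.33 (SE 0.13, adjusted p = 0.35 with limma). Ifi35 averaged 63.8 ± 7.69 FPKM with PGE2 and 61.8 ± 0.362 FPKM with Vehicle. Trim30a, a negative regulator of inflammatory signalling, averaged 16.2 ± 3.53 FPKM with PGE2 and 17.0 ± 2.10 FPKM with Vehicle. Its log2 change was -0.08 by FPKM and 0.22 by coverage, so no direction is given for Trim30a. Coverage gave the same sign as FPKM for the other 36 tested members and a log2 change within 0.1 of it for 35 of 37. The assembled locus gave log2 changes of 0.59 for Ifit2, 0.20 for Xaf1, -0.29 for Isg20, 0.09 for Eif2ak2 and 0.17 for Trim30a, against 0.26, 0.33, -0.09, -0.12 and -0.08 for the annotated genes. In PGE2 replicates 2 and 3 the same locus, at 9.29 and 12.5 FPKM, covered both Ifit2 and Ifit3, so the 0.59 also holds Ifit3 there. The locus of Isg20 departed mainly in Vehicle replicate 1, at 67.3 FPKM against 45.5 for the gene. That of Eif2ak2 departed mainly in PGE2 replicate 2, at 14.3 FPKM against 8.83.

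Replicates of the same group also differed from each other in these genes. Replicate 3 had the highest FPKM of its group in both groups for 19 of the 37 tested members, or 51.4%, against 22.3% of all tested genes. The 19 include Iigp1, Irgm2, Ifitm1, Ifitm2, Ifitm3, Bst2, Ifit3, Isg15 and Ly6a. The median deviation of the members from their group mean was -0.09, -0.05 and 0.13 on the log2 scale in PGE2 replicates 1 to 3, and -0.02, -0.02 and 0.10 in Vehicle replicates 1 to 3. Replicate 3 is also the shallowest in both groups, and the part of depth in this was not tested. Leaving out PGE2 replicate 3 gave a median log2 change of 0.16 with 27 of 37 members higher. Leaving out Vehicle replicate 3 gave 0.30 with 33 of 37 higher. Without Vehicle replicate 1 or 2 the median was 0.17 and 0.20, with 31 and 28 higher. Without PGE2 replicate 1 or 2 it was 0.25 and 0.26, with 33 and 32 higher.

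**Figure D5:**
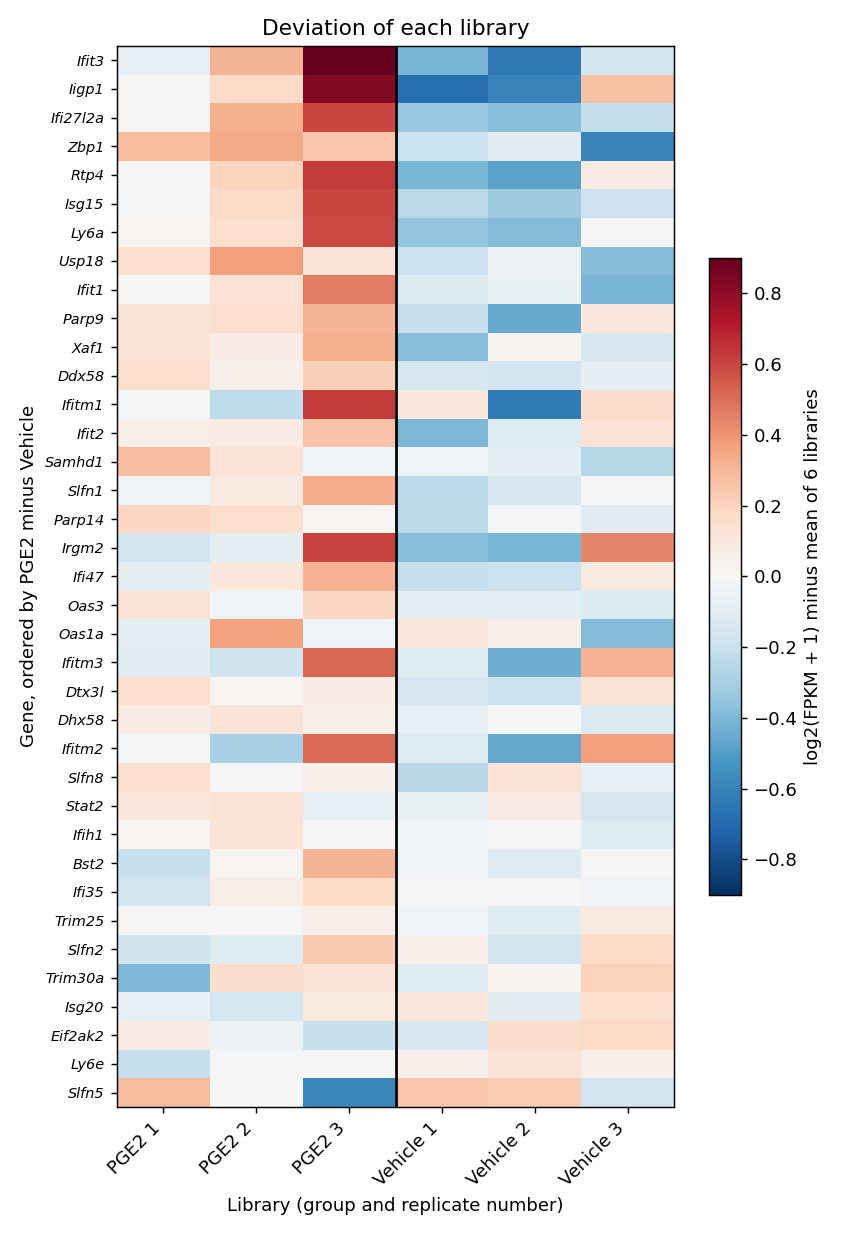
Deviation of each library from the mean of 6 libraries on the log2(FPKM + 1) scale, for the 37 tested members ordered by their change with PGE2, in colour from blue (below) to red (above). The PGE2 columns, left of the black line, are redder in the upper rows, and the third column of each group is redder than its neighbours in many rows.

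The genes around these effectors were read from lists chosen with earlier results of these data known. Of 17 interferons and interferon receptors 6 were tested, and 8 interferon genes, Ifna1, Ifna2, Ifna4, Ifna5, Ifnab, Ifnb1, Ifne and Ifnk, are listed at 0 in all 6 libraries. Ifng, the interferon made by T cells, had 1.07, 1.48 and 1.54 FPKM in PGE2 libraries and 1.42, 1.22 and 1.40 FPKM in Vehicle libraries, and its groups overlap. Some of the receptors differed from this. Ifngr1, the ligand-binding chain for interferon gamma, rose with PGE2, at 283, 283 and 291 FPKM against 160, 141 and 134 FPKM with Vehicle. Its log2 change was 0.98 (SE 0.09) and its adjusted p 0.0063 with limma, and 0.056 without PGE2 replicate 2. Ifnar1, a chain of the type I receptor, had 38.9, 40.4 and 36.7 FPKM with PGE2 and 22.1, 27.5 and 27.6 FPKM with Vehicle, and rose with the block alone (adjusted p = 0.067 without and 0.033 with it in limma). Without pair 2 and pair 3 the adjusted p of Ifnar1 with the block was 0.093 and 0.061. Ifnar2 had a log2 change of -0.04 and Il10rb one of 0.10, and the groups of each overlap. Ifngr2 had a log2 change of 0.39 with groups that do not overlap, and its adjusted p was 0.097 without and 0.06 with the block in limma, and 0.034 with the block on coverage.

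Of 21 genes that carry or regulate the interferon signal, all tested, 2 rose without the block and 3 with it, and their median log2 change was 0.10. Over all tested genes 0.57% rose without the block and 1.77% with it. Irf7, the factor that amplifies interferon production, rose with PGE2 at 8.94, 11.3 and 12.0 FPKM against 6.20, 5.79 and 5.57 FPKM with Vehicle. Its adjusted p was 0.045 with limma, and without each library except PGE2 replicate 1 it was 0.088 to 0.21. Ube2l6, the enzyme that passes Isg15 to its targets, rose at 14.3, 18.0 and 16.4 FPKM with PGE2 against 9.52, 9.85 and 10.6 FPKM with Vehicle. Its adjusted p was 0.049 with limma and 0.074 to 0.21 with any library left out. Stat3 passed with the block alone, with an adjusted p of 0.079 without and 0.034 with it in limma. With the block its adjusted p was 0.19 and 0.085 without pair 2 and pair 3.

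Further interferon-stimulated genes outside the 44 had a smaller median change. Of 69 such names 63 were found in the data and 43 were tested. Of these 43, 26 had a higher mean with PGE2, and their median log2 change was 0.10. Of all tested genes 43.3% had a higher mean with PGE2. Gbp2, a guanylate-binding protein of cell-autonomous defence, rose without the block at a log2 change of 0.72 (adjusted p = 0.012 with limma). Ifit1bl1, a relative of Ifit1, rose with the block alone (adjusted p = 0.27 without and 0.042 with it in limma). With the block the adjusted p of Ifit1bl1 was 0.16 and 0.14 without pair 2 and pair 3. The adjusted p of Gbp2 was 0.086 without PGE2 replicate 2, and 0.06 and 0.078 when Vehicle replicate 1 or 2 was left out. Of 16 names listed for sensing of nucleic acid upstream of interferon, 14 were found in the data and 12 were tested. Of these 12, 3 had a higher mean with PGE2, and their median log2 change was -0.07. None of these 12 was called by limma with or without the block, and 0 had an unadjusted p under 0.05. The lowest p was that of Ikbke, a kinase that starts interferon production, at a log2 change of -0.41 and an adjusted p of 0.38, which was 0.048 without Vehicle replicate 3. Of 16 tested genes that respond to cAMP, 4 rose without the block and 7 with it, against 0.57% and 1.77% of all tested genes. The median log2 change of these 16 was 0.40. Crem, an inducible repressor of cAMP-driven transcription, had a log2 change of 1.75 by FPKM and 1.27 by coverage (adjusted p = 0.0027 and 0.0028 with limma).

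Most markers of other cells averaged under 1 FPKM. Those that averaged 1 FPKM or more were 2 of 6 for B cells and 2 of 6 for NK and CD8 cells. Plasmacytoid dendritic, myeloid, and stromal and endothelial cells had 1 such marker each. The summed FPKM of 7 markers of plasmacytoid dendritic cells, a source of type I interferon, was 62.0 to 65.3 with PGE2 and 67.1 to 79.9 with Vehicle, nearly all of it from Irf8, while Siglech was listed at 0 in all libraries. Myeloid markers summed to 3.02 to 4.90 FPKM with PGE2 and 2.43 to 5.89 FPKM with Vehicle. NK and CD8 markers summed to 8.57 to 11.3 FPKM with PGE2 and 6.28 to 8.16 FPKM with Vehicle, with Ncr1 and Klrb1c listed at 0. Klrd1 rose with the block alone, at an adjusted p of 0.38 without and 0.033 with it in limma. Without pair 2 and pair 3 the adjusted p of Klrd1 with the block was 0.12 and 0.059. B cell markers summed to 85.2 to 123 FPKM with PGE2 and 130 to 228 FPKM with Vehicle, mostly from Ighm. Ighm fell with the block alone, at an adjusted p of 0.2 without and 0.01 with it in limma. Cd79b had 3.02 to 3.63 FPKM with PGE2 and 3.42 to 5.32 FPKM with Vehicle. Cd79a was under 1 FPKM, and Ms4a1 and Pax5 were at or near 0. Stromal and endothelial markers summed to 10.5 to 12.2 FPKM with PGE2 and 9.18 to 10.8 FPKM with Vehicle, and erythroid and platelet markers to 1.76 to 3.3 FPKM with PGE2 and 1.99 to 2.24 FPKM with Vehicle. The 7 regulatory T cell markers summed to 1610 to 1690 FPKM with PGE2 and 1460 to 1540 FPKM with Vehicle. Of these 7, 1 rose without and 1 with the block, against 0.57% and 1.77% of all tested genes. The part of these differences in the levels of the interferon-stimulated genes was not tested.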

How the data were processed

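Per the labels' protocols, a column kit served for RNA extraction and a stranded mRNA kit for the libraries. Trim Galore, HISAT2 and the mouse build mm10 are named per the submitters' processing notes; tool versions, the annotation and the counting program were not given in the sources used here. The deposited FPKM values were normalized by the authors for transcript length and library size. The deposited coverage, a signal of mean read depth per gene, was used as a check after division by each library's ratio of coverage to FPKM, which also gave the depth. The TPM column, deposited by the authors, was taken as a score and left out, since it lists loci more than once. Genes over 1 FPKM had a median coverage of 27.6 to 36.1. Counts are not at hand, so no counting interval is given.

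Rows with an Ensembl ID were used, and IDs listed more than once, 21 to 27 per library, were summed. Of 47643 IDs, 47224 are in GENCODE M21, and positions are as the files give them. Values were taken as log2(FPKM + 1) for the 12113 genes that averaged 1 FPKM or more over 6 libraries and tested with limma 3.58.1 (R 4.3.3) with a variance trend, two-sided, Benjamini-Hochberg adjusted over all 12113. Deviations from group means correlated across genes at 0.227, 0.312 and 0.529 between libraries of the same number in the titles. Between other numbers they correlated at -0.433 to 0.271, and the numbers were taken to pair the libraries. Deviations within a group are tied to each other, so the values of replicates 1 and 2 partly follow from that of replicate 3. Crossed, replicates 1 and 2 correlated at 0.271 and 0.149, so their pairing is not settled. Alternatives were a pseudocount of 0.1, no filter, coverage, median-of-ratios scaling, the replicate block, and leaving out each library; leaving out pairs and the block with coverage were added after seeing the data. The share of 50-base words in other genes was counted over GENCODE M21 transcripts.

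Members and lists were chosen with earlier results of these data known. All 44 members may be named; those with the 14 smallest p-values, or whose groups do not overlap, are given per library. Of each other list, up to 4 called genes or, with none called, the smallest p and the highest level may be named. Ifitm2, Ifit3b, Ifng, Crem, the receptors without a call and the promoter of Bst2 were chosen after their values were seen. Some items are not reported here.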

Additional observations from a re-analysis of the deposited data

How the results depend on the processing

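Over all tested genes 98 were called, and 45 without the filter, 159 with coverage, 395 with the replicate block, 635 with the block on coverage, 963 and 151 with the block without pair 1 and pair 2, and 22 to 69 when 1 library was left out. Only fits with the block called members: 5 with the block, 8 and 1 with the block without pair 1 and pair 3, and 7 with the block on coverage. The other alternatives, including the block without pair 2, gave 0. The cause was not tested. The median log2 change of the members was 0.21, and 0.23 with a pseudocount of 0.1, 0.18 without the filter, 0.25 with median-of-ratios scaling, which moved the median of all genes by 0.03, and 0.16 to 0.30 when 1 library was left out. Of 407 values of single members under the alternatives, 387 kept their direction and side of the threshold, 5 passed it with the block, and 15, in 9 members, changed sign. Trim30a turned to 0.22 with coverage. When 1 library was left out, the log2 change ranged from -0.01 to 0.09 for Trim25, -0.01 to 0.51 for Irgm2, -0.05 to 0.20 for Bst2, -0.09 to 0.35 for Ifitm2, -0.06 to 0.36 for Ifitm3, -0.16 to 0.05 for Slfn2, -0.40 to 0.03 for Slfn5, -0.04 to 0.13 for Ifi35 and -0.18 to 0.10 for Trim30a. It also moved Iigp1 between 0.43 and 0.97, Ifit3 between 0.53 and 1.07, Isg15 between 0.33 and 0.64 and Ly6a between 0.33 and 0.62. Depth limits the 7 members under 1 FPKM, which were not tested.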
